A study of Rattus norvegicus with 6 samples.

Results

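The DUSP, Sprouty, SPRED and ETV genes examined here are commonly read as a report on signalling through the kinase ERK. The DUSP, Sprouty and SPRED products also restrain this signalling. ERK activity itself was not measured in these libraries. The genes are Dusp1, Dusp4, Dusp5, Dusp6, Spry1, Spry2, Spry4, Spred1, Etv4 and Etv5, chosen by name as 10 of the 21857 gene symbols counted. These genes and the gene lists used below were chosen with earlier results of these data known. Their shares and medians, set beside those of all genes, are therefore descriptions. The libraries came from neonatal rat cardiac fibroblasts (NRCFs), primary cells taken from the hearts of healthy rats no older than 3 days. The Vector group (3 libraries, genotype label WT) received an empty plasmid. The other group (3 libraries, genotype label FTO overexpression) received a plasmid carrying FTO, a demethylase of the m6A mark on RNA. All 6 libraries shared the tissue label heart, the cell label cardiac fibroblasts and the strain label Noway, while the text of the design names Sprague-Dawley rats. Overexpression was by plasmid transfection of a primary culture, so each library averages over cells that took up the plasmid and cells that did not. The labels do not say whether replicates came from separate cultures or animals. The p-values therefore measure only the spread between these libraries, which may be technical.

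ERK is the last kinase of a relay in which a growth factor receptor activates Ras, Ras activates Raf, Raf activates MEK and MEK phosphorylates ERK. Active ERK raises the transcription of its own inhibitors. DUSP proteins remove the phosphates from ERK and related kinases, while Sprouty and SPRED proteins block the steps between the receptor and Raf. ETV4 and ETV5 are ETS transcription factors whose genes are switched on by fibroblast growth factor signalling through ERK. In fibroblasts this pathway drives proliferation in response to growth factors.

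The libraries held 13178952 to 17857999 counted reads. Values are CPM, counts relative to library size after TMM scaling (trimmed mean of M-values), and 1 count was worth 0.0558 to 0.0755 CPM. Fto itself was at 87.8, 89.6 and 87.4 CPM in the Vector libraries and at 93.2, 90.8 and 92.9 CPM in the libraries labelled FTO. The log2 fold change of 0.06 (SE 0.0468) did not pass edgeR's quasi-likelihood test (adjusted p 0.239). For that reason the second group is referred to by its label throughout. The paper describes the insert of the plasmid as rat FTO cDNA. It also reports checks of the transfection by quantitative PCR and at the protein level. Whether these counts would register the transcript of the plasmid was not tested.

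The groups differed in much of the transcriptome. Of 12941 genes tested, 65.9% had an adjusted p under 0.05 in edgeR's quasi-likelihood test, 33.2% higher and 32.8% lower than in the Vector group. All 10 feedback genes had enough counts to be tested, and 9 of them passed, 4 higher and 5 lower. Over the 10 genes the median log2 fold change was -0.21, beside 0.0011 for all genes tested. Their median absolute log2 fold change was 0.56, beside 0.36 for all genes tested. The study's own threshold, an absolute log2 fold change of at least 1 with an unadjusted p under 0.05, was passed by 19.6% of all genes, and by 9.27% in the lower direction. Dusp4, Spry1 and Spry4 passed it, all 3 being lower. For 9 of the 10 genes the CPM ranges of both groups stood apart, against 70.3% of all genes tested. The summed level of the 10 genes was 635 to 644 CPM in the Vector libraries and 514 to 538 CPM in the libraries labelled FTO. In bulk RNA, fewer cells expressing a gene and less of its RNA per cell cannot be told apart.

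**Figure D1:**
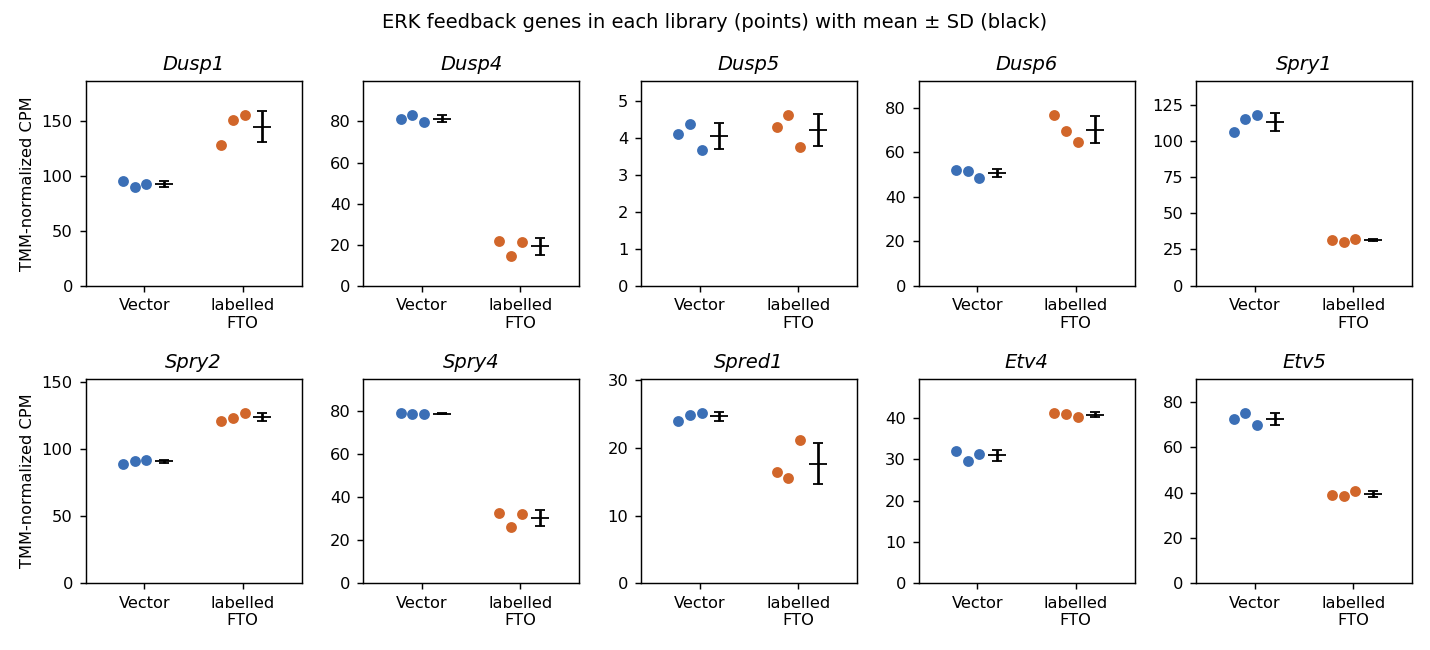
TMM-normalized CPM (linear axis from 0) of the 10 feedback genes in the 3 Vector libraries (blue) and the 3 libraries labelled FTO (orange), with the mean ± SD of each group in black. The groups are apart for every gene but Dusp5, with Dusp1, Dusp6, Spry2 and Etv4 higher and Dusp4, Spry1, Spry4, Spred1 and Etv5 lower in the libraries labelled FTO.

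The 4 DUSP phosphatases moved in different directions. Dusp1 and Dusp6 were higher in the libraries labelled FTO, Dusp4 was lower, and Dusp5 did not pass the test. DUSP1, DUSP4 and DUSP5 are nuclear enzymes, and DUSP6 is cytoplasmic. DUSP1 acts on p38, JNK and ERK, whereas DUSP5 and DUSP6 are selective for ERK.

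Dusp4 had the largest decrease of the 10 genes. It was at 81.1, 83.1 and 79.8 CPM in Vector replicates 1, 2 and 3 and at 21.8, 14.5 and 21.2 CPM in those labelled FTO, again by replicate number. The groups were far apart, and replicate 2 was the lowest of the latter group. The means were 81.3 ± 1.62 and 19.2 ± 4.05 CPM (SD, n = 3 each), a 4.25-fold lower level. This was a log2 fold change of -2.07 (SE 0.101, edgeR's quasi-likelihood test, adjusted p 6.4e-11). The SD of log2 CPM for Dusp4 in the libraries labelled FTO was 0.327, the widest within-group spread of the 10 genes, beside a median of 0.103 over all genes tested. That median was 0.0794 in the Vector libraries. Replicates 2 and 3 labelled FTO also differed most over the whole set of genes. The chi-square per degree of freedom of their counts was 8.02, beside 1.56 to 2.12 for pairs of Vector libraries.

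Dusp1, an immediate early gene induced by stress and by growth factors, had the largest increase of the 10. It was at 95.03, 90.2 and 92.2 CPM in the Vector libraries and at 128, 150 and 155 CPM in the libraries labelled FTO. All of the latter lay above the Vector libraries, with replicate 1 the lowest. The means were 92.5 ± 2.44 and 145 ± 14.3 CPM, a 1.56-fold increase with a log2 fold change of 0.65 (SE 0.0636, edgeR's quasi-likelihood test, adjusted p 3.1e-07). Dusp6, the cytoplasmic ERK phosphatase, was at 51.9, 51.5 and 48.4 CPM in the Vector libraries and at 76.7, 69.6 and 64.4 CPM in the libraries labelled FTO. Its means were 50.6 ± 1.91 and 70.3 ± 6.17 CPM, a 1.39-fold increase (log2 fold change 0.47, SE 0.0673, edgeR's quasi-likelihood test, adjusted p 1.8e-05).

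Dusp5 was counted least, with 53 to 67 reads per library. Its levels were 4.10, 4.36 and 3.67 CPM in the Vector group and 4.28, 4.61 and 3.74 CPM in the libraries labelled FTO. The ranges overlapped almost completely. The log2 fold change was 0.05 (SE 0.169, edgeR's quasi-likelihood test, adjusted p 0.819). Its 95% confidence interval ran from 0.805-fold to 1.33-fold. An increase the size of that of Dusp6 lay just outside it, and changes within it remained compatible with the counts at this depth.

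Promoter sequences are shown for Dusp1, which rose, and Dusp5, which did not pass the test. Each is the 250 bases before the annotated start in RefSeq (assembly GRCr8), matched by symbol because the counts carry no coordinates and the submitters' processing notes name another build, rn6. Windows were found for 8 of the 10 genes, not for Dusp4 or Etv4. Capitals mark the motifs searched on both strands. These were the cAMP response element (CRE, TGACGTCA), its core (TGACGT, which overlaps the full element), an ETS site (CCGGAAG), an AP-1 site (TGANTCA), the CArG box bound by serum response factor, and CCAAT. Over the 33469 promoter windows of the same length, 1.59% held the CRE, 6.95% its core, 7.27% the ETS site, 6.34% the AP-1 site, 1.5% a CArG box and 34% CCAAT. These shares were not matched for base content. The median GC content of all windows was 51.2%, beside 68.8% for the Dusp1 window and 67.2% for the Dusp5 window.
Dusp1, chr10:17184603-17184852, plus strand: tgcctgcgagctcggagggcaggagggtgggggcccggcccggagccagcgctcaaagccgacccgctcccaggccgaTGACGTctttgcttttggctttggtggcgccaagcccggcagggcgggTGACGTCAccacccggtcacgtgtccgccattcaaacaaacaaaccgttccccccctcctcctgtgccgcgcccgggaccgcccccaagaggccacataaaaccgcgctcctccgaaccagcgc
Dusp5, chr1:262543524-262543773, plus strand: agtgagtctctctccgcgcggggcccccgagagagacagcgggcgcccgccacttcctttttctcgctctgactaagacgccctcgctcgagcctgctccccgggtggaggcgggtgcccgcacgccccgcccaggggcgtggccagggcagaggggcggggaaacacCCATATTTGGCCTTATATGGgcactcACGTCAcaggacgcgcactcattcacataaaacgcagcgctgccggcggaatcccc
The Dusp1 window held a full CRE at bases -124 to -117 from the start and a further core at -172 to -167. The Dusp5 window held 2 adjoining CArG boxes, at -82 to -73 and -72 to -63, and a CRE core on the reverse strand at -56 to -51. Dusp6 held only a CCAAT, on the reverse strand. These matches describe the letters of the windows and not binding.

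The Sprouty genes also divided. Spry1 and Spry4 fell while Spry2 rose. Sprouty proteins are membrane-associated antagonists that are phosphorylated after receptor activation and hold back Ras and Raf. Spry1 was at 106, 115 and 118 CPM in the Vector libraries and at 31.4, 30.5 and 32.1 CPM in the libraries labelled FTO. The latter 3 lay close together and far below the Vector group. The means were 113 ± 6.18 and 31.3 ± 0.774 CPM, a 3.60-fold lower level. The log2 fold change of -1.85 (SE 0.0591) had the smallest adjusted p of the 10 genes, 3.6e-13 in edgeR's quasi-likelihood test.

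Spry4 was at 79.3, 78.8 and 78.7 CPM in the Vector libraries and at 33.0, 26.4 and 32.3 CPM in the libraries labelled FTO. As for Dusp4, replicate 2 was the lowest of the latter group. The means were 78.9 ± 0.342 and 30.6 ± 3.65 CPM, 2.58-fold lower (log2 fold change -1.36, SE 0.0732, edgeR's quasi-likelihood test, adjusted p 2.2e-10). Spry2 was at 89.5, 91.5 and 92.2 CPM in the Vector libraries and rose to 121, 124 and 127 CPM. Its means were 91.0 ± 1.40 and 124 ± 3.05 CPM, a 1.36-fold increase with a log2 fold change of 0.45 (SE 0.0460, edgeR's quasi-likelihood test, adjusted p 5.2e-07).

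Spred1 encodes a Sprouty-related protein that brings the Ras inhibitor neurofibromin to the membrane. It was at 23.9, 24.8 and 25.1 CPM in the Vector libraries and at 16.4, 15.5 and 21.1 CPM in the libraries labelled FTO. Replicate 3 of the latter group came within 2.81 CPM of the lowest Vector library, the narrowest gap in CPM among the 9 genes that passed. The means were 24.6 ± 0.621 and 17.7 ± 3.02 CPM, 1.39-fold lower (log2 fold change -0.47, SE 0.105, edgeR's quasi-likelihood test, adjusted p 0.00119).

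The promoter windows of Spry1 and Spry2, the pair of Sprouty genes that moved furthest apart, are given for comparison. Neither held any of the motifs searched, so no letter is in capitals. The same was true of a further Spry2 window and of the windows of Spry4 and Spred1.
Spry1, chr2:122485097-122485346, plus strand: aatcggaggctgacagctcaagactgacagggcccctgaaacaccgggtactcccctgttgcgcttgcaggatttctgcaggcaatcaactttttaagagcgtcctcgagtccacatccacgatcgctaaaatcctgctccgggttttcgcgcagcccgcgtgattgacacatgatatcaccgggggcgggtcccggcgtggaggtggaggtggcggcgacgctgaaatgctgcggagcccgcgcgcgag
Spry2, chr15:89111927-89112176, minus strand: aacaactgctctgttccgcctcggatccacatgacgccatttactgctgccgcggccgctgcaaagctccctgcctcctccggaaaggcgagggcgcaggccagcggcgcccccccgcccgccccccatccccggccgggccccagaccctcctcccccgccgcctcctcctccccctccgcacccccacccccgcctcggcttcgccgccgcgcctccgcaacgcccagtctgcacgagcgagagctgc
The absence of these letters from a window of this length says nothing about the factors that bind them.

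The ETV factors moved in opposite directions. Etv4 was at 32.0, 29.6 and 31.3 CPM in the Vector libraries and at 41.2, 41.0 and 40.3 CPM in the libraries labelled FTO. Its means were 31.0 ± 1.26 and 40.8 ± 0.510 CPM, a 1.32-fold increase with a log2 fold change of 0.40 (SE 0.0641, edgeR's quasi-likelihood test, adjusted p 5.9e-05). Etv5, of the same PEA3 subfamily, was at 72.5, 75.3 and 70.1 CPM in the Vector libraries and at 39.1, 38.4 and 40.9 CPM in the libraries labelled FTO. Its means were 72.6 ± 2.60 and 39.4 ± 1.30 CPM, 1.84-fold lower (log2 fold change -0.88, SE 0.0576, edgeR's quasi-likelihood test, adjusted p 2.5e-09). Neither gene's groups overlapped. The window of Etv5, shown because it held 3 copies of a single motif, had CCAAT at -231, -136 and -104 from the start.
Etv5, chr11:92113013-92113262, plus strand: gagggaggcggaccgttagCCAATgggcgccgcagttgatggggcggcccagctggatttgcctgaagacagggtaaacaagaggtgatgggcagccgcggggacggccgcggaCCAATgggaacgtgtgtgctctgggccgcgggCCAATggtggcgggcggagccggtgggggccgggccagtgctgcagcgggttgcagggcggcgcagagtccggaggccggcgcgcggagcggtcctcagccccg
No ETS or AP-1 site was found in it.

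**Figure D2:**
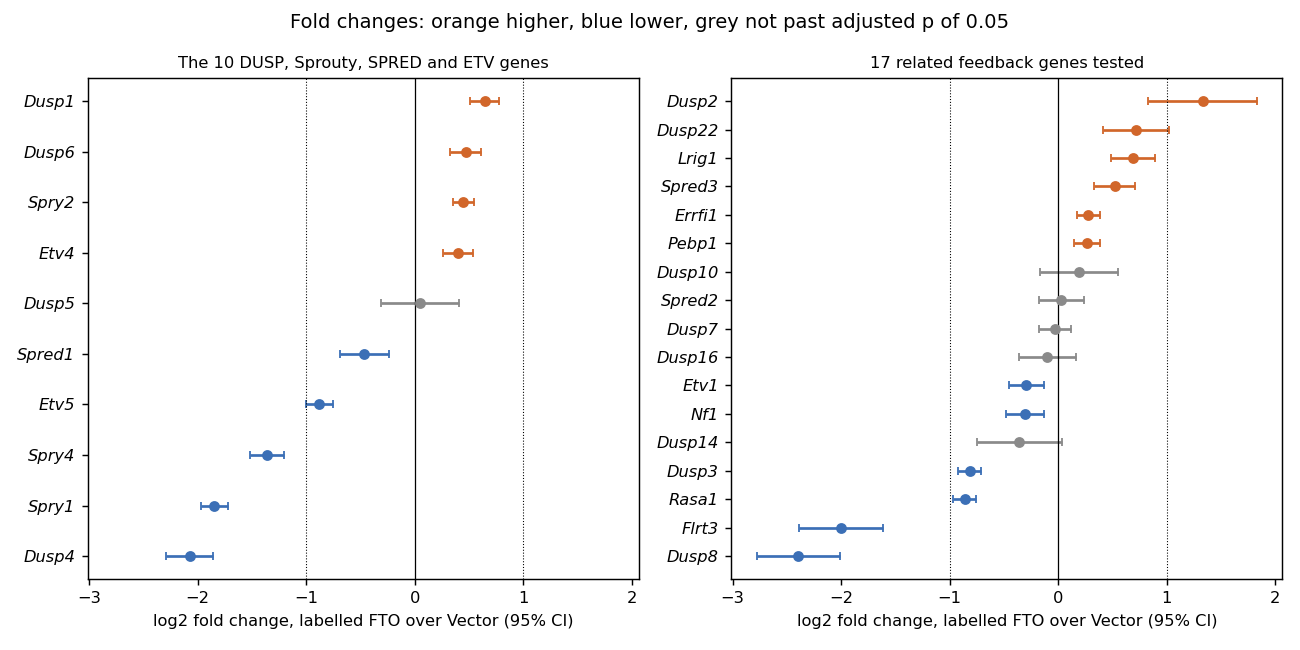
Fitted log2 fold change (x axis) of the libraries labelled FTO over Vector with its 95% confidence interval, for the 10 feedback genes (left) and 17 related feedback genes (right), orange for higher, blue for lower and grey for an adjusted p of 0.05 or more, with dotted lines at the study's fold threshold. The decreases of Dusp4 (-2.07) and Spry1 (-1.85) are larger than any increase on the left, where Dusp1 is highest at 0.65.

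Each family was also described by its sum and by its make-up. The summed level of the 4 DUSP genes was 228 ± 4.03 CPM in the Vector group and 238 ± 6.67 CPM in the libraries labelled FTO, a ratio of 1.04. The 3 Sprouty genes together went from 283 ± 7.24 to 186 ± 5.59 CPM, and the ETV pair from 104 ± 1.93 to 80.3 ± 0.888 CPM. Shares of a family's reads do not depend on the scaling between libraries, though they are not corrected for transcript length. With 3 libraries against 3, the exact two-sided permutation test used for them cannot give a p under 0.1.

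Among the DUSP reads, Dusp4 took 35.6 ± 0.650% in the Vector group and 8.05 ± 1.77% in the libraries labelled FTO. Dusp1 took 40.5 ± 0.980% and 60.6 ± 4.42%, and Dusp6 took 22.1 ± 0.481% and 29.6 ± 3.43%. The share of Dusp5 was 1.77 ± 0.133% and 1.77 ± 0.210%. Among the Sprouty reads, the mean share of Spry2 was 32.2 ± 0.334% in the Vector group and 66.8 ± 1.61% in the libraries labelled FTO. Spry1 went from 39.9 ± 1.18% to 16.8 ± 0.101% and Spry4 from 27.9 ± 0.845% to 16.4 ± 1.63%. Etv4 made up 29.9 ± 1.48% of the ETV reads in the Vector group and 50.9 ± 1.10% in the libraries labelled FTO. Each of these shares had the smallest p of 0.1 in the exact permutation test, other than that of Dusp5 with an exact p of 1.

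**Figure D3:**
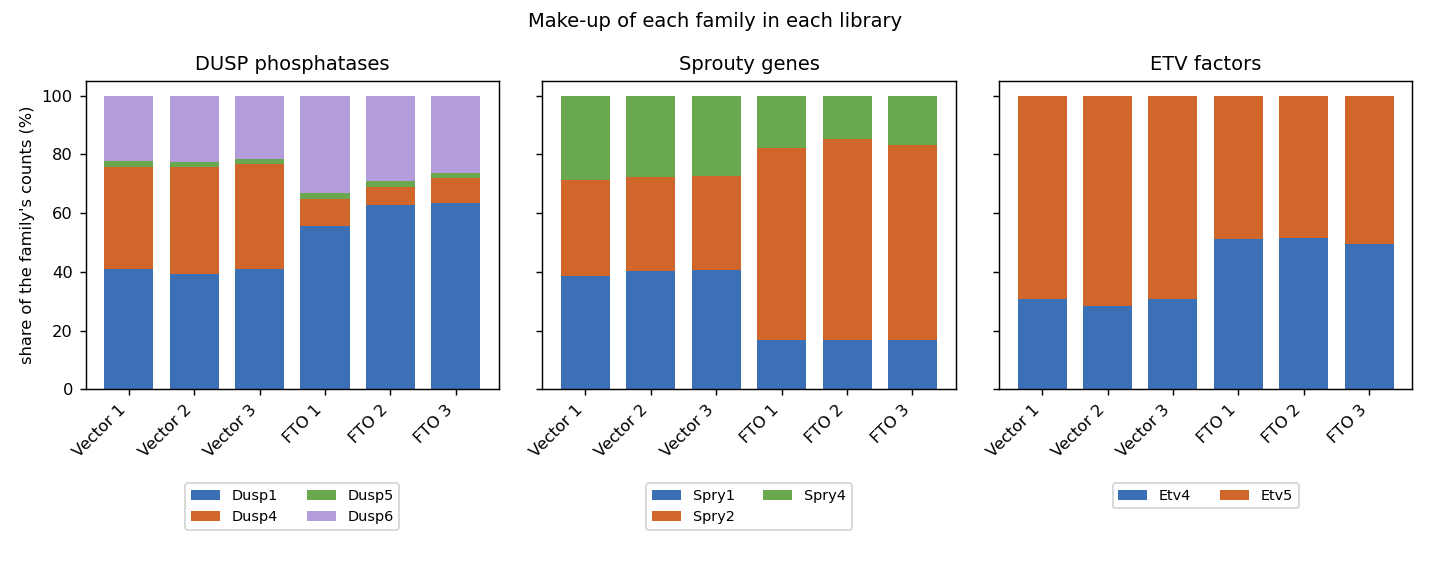
Percent of each family's counted reads taken by each gene in every library, for the DUSP, Sprouty and ETV genes, with the 3 Vector libraries on the left of each panel. Spry2 takes 32.2% of the Sprouty reads on average in the Vector group and 66.8% in the libraries labelled FTO, and the share of Dusp4 among the DUSP reads is 35.6% and 8.05%.

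Ratios between genes of a family, chosen after the values were known, describe the same shift within each library. Reads of Spry1 per read of Spry2 were 1.18, 1.26 and 1.28 in the Vector libraries and 0.259, 0.247 and 0.252 in the libraries labelled FTO. Reads of Dusp4 per read of Dusp6 went from 1.56, 1.61 and 1.65 to 0.284, 0.208 and 0.328. Reads of Etv4 per read of Etv5 went from 0.442, 0.393 and 0.447 to 1.06, 1.07 and 0.985. Dusp1 and Dusp6, which both rose, kept overlapping ratios of 1.83, 1.75 and 1.91 in the Vector libraries and 1.67, 2.16 and 2.41 in the others. Of the 10 within-family ratios, 9 had an exact permutation p of 0.1 (0.111 after Benjamini-Hochberg adjustment over the 10), the smallest the design allows, and Dusp1 to Dusp6 had an exact p of 0.4.

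The genes whose pattern over the 6 libraries was most like that of Dusp4 and Dusp1 were sought among 10041 genes with a mean of at least 100 counts. Likeness was the root mean square distance between log2 CPM centred on each gene's mean, so a smaller value is a closer match. For Dusp4 these were Limch1 (0.0571), Col14a1 (0.0645), the gene of a fibril-associated collagen, and Slc37a2 (0.0785). Limch1 went from 39.7 to 42.2 CPM in the Vector libraries to 6.80 to 10.5 CPM in the libraries labelled FTO. Col14a1 went from 1476 to 1493 CPM to 259 to 388 CPM. Slc37a2 went from 31.9 to 33.1 CPM to 5.82 to 8.49 CPM. In each, as in Dusp4, replicate 2 had the lowest level of the second group, a likeness that the way of choosing them favours. For Dusp1 the closest were Dync2li1 (0.0509), Flt4 (0.0528), a receptor for vascular endothelial growth factors of lymphatic vessels, and Mxra7 (0.0529). All points share the same 6 libraries and the split between groups, and with 6 points such matches are a description.

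Other feedback regulators were followed through 20 related genes, of which 17 could be tested. At an adjusted p under 0.05, 6 were higher and 6 lower, or 70.6% called beside 65.9% of all genes tested (33.2% higher and 32.8% lower). Their median log2 fold change was -0.03. Dusp8, a phosphatase of JNK and p38, fell most, from 7.90, 6.84 and 7.27 CPM to 1.40, 1.28 and 1.45 CPM (log2 fold change -2.40, SE 0.180, edgeR's quasi-likelihood test, adjusted p 1.3e-08). Dusp2, a nuclear phosphatase, rose most, from 1.02, 1.27 and 1.04 CPM to 2.81, 2.87 and 2.79 CPM (log2 fold change 1.33, SE 0.237, edgeR's quasi-likelihood test, adjusted p 1.5e-04), on 14 to 50 reads per library. Errfi1, an inhibitor of the EGF receptor, rose from 86.3 ± 1.34 to 105 ± 4.40 CPM, and Etv1, the remaining PEA3 factor, fell from 28.5 ± 0.783 to 23.2 ± 1.24 CPM.

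Several close relatives of the 10 genes did not pass the test. Dusp7, a cytoplasmic ERK phosphatase like Dusp6, was at 49.6 ± 4.37 and 48.6 ± 1.59 CPM. Spred2 was at 23.5 ± 3.14 and 24.0 ± 1.73 CPM, beside the decrease of Spred1. The stress-kinase phosphatases Dusp10 and Dusp16 had log2 fold changes of 0.20 (SE 0.167) and -0.10 (SE 0.124). Il17rd, an antagonist of FGF receptors, had 3 to 17 reads per library and was not tested.

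The cascade itself was measured through 27 genes, of which 7 were higher and 10 lower, with a median log2 fold change of -0.08. The 63.0% called was near the 65.9% of all genes tested. Map2k1, which encodes MEK1, had the largest rise of the list, from 114, 115 and 117 CPM to 201, 206 and 190 CPM (log2 fold change 0.79, SE 0.0458, edgeR's quasi-likelihood test, adjusted p 5.9e-10). Map2k2, for MEK2, was at 76.7 ± 0.502 and 76.0 ± 6.04 CPM and did not pass.

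Mapk3, which encodes ERK1, rose from 131 ± 4.11 to 150 ± 10.2 CPM. Rps6ka1, a kinase activated by ERK, had the largest fall of the cascade, from 13.2 ± 0.1505 to 6.15 ± 0.891 CPM (log2 fold change -1.12). Braf was at 10.8 ± 1.66 and 8.49 ± 2.02 CPM, with an adjusted p of 0.0813 in edgeR's quasi-likelihood test. It passed without Vector replicate 1 (adjusted p 0.0293) and without replicate 3 of the libraries labelled FTO (0.00337). Leaving out any of the other 4 libraries gave an adjusted p of 0.141 to 0.300, and the log2 fold change ran from -0.57 to -0.21 over the 6 fits. It also passed with no filter on low counts (0.0380).

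Of 13 transcripts commonly induced by ERK, 5 were higher and 5 lower, with a median log2 fold change of -0.28. This was 76.9% called, beside 65.9% of all genes tested. Fos, an immediate early transcription factor, fell most, from 20.0, 18.7 and 16.3 CPM to 4.35, 4.003 and 4.36 CPM (log2 fold change -2.10, SE 0.124, edgeR's quasi-likelihood test, adjusted p 7.0e-10). Fosl1, of the same family, rose most, from 5.90 ± 0.780 to 16.8 ± 0.489 CPM (log2 fold change 1.51). Egr1 fell from 67.7 ± 5.14 to 53.7 ± 3.67 CPM, and Phlda1 from 29.7 ± 1.66 to 18.3 ± 1.82 CPM. Ccnd1, the gene of cyclin D1, fell from 390 ± 5.20 to 207 ± 16.4 CPM (log2 fold change -0.91).

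Upstream of the cascade are the growth factor receptors and their ligands. Of 16 receptor genes, 4 were higher and 9 lower, or 81.2% called beside 65.9% of all genes tested (33.2% higher and 32.8% lower). Pdgfra, a receptor for platelet-derived growth factor and also a fibroblast marker, rose from 168, 173 and 179 CPM to 1005, 875 and 1049.7 CPM (log2 fold change 2.49, SE 0.0606, edgeR's quasi-likelihood test, adjusted p 1.3e-14). Egfr rose from 21.9 ± 2.27 to 63.6 ± 10.6 CPM (log2 fold change 1.55). Fgfr1 fell from 178 ± 3.82 to 143 ± 10.6 CPM (log2 fold change -0.32), and Kit fell most, from 8.996 ± 0.424 to 2.32 ± 0.238 CPM.

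Of 18 ligands tested, 7 were higher and 9 lower, or 88.9% called beside the same 65.9%. Hgf, the ligand of the receptor Met, rose most, from 8.56, 7.92 and 8.38 CPM to 137, 144 and 136 CPM (log2 fold change 4.07, SE 0.0662, edgeR's quasi-likelihood test, adjusted p 1.2e-16). Nrg1, a ligand of ERBB receptors, fell most, from 68.7 ± 4.24 to 5.70 ± 0.813 CPM (log2 fold change -3.57). Fgf7 rose from 0.740 ± 0.329 to 2.32 ± 0.0777 CPM on 6 to 40 reads per library, and Hbegf fell from 38.2 ± 2.19 to 19.5 ± 0.375 CPM. Fgf2 had a log2 fold change of -0.58 with an adjusted p of 0.0454 in edgeR's quasi-likelihood test. Its groups overlapped, since replicate 3 of the libraries labelled FTO was at 4.52 CPM and Vector replicate 2 at 4.23 CPM. The call was lost with DESeq2 (adjusted p 0.0512) and on leaving out any library but that replicate 3, with adjusted p-values from 0.0530 to 0.182. Without that replicate 3 the log2 fold change was -1.03 (edgeR's quasi-likelihood test, adjusted p 4.2e-04).

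**Figure D4:**
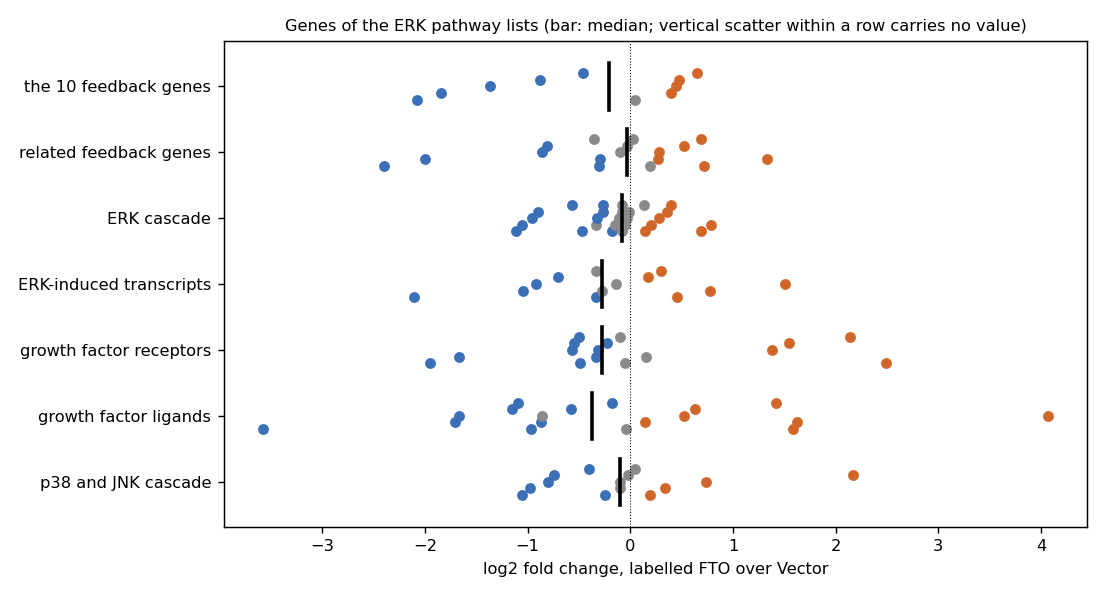
Fitted log2 fold change (x axis) of every tested gene of the 10 feedback genes and 6 lists around the ERK pathway, 1 point per gene, orange for higher, blue for lower and grey for an adjusted p of 0.05 or more, with a black bar at the median of each list. Each list holds genes on both sides of 0, and the medians lie between -0.38 and -0.03.

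Markers of the labelled cell type and of other cells differed between the same groups. Between 85.7% and 100% of each set's tested markers passed edgeR's quasi-likelihood test at an adjusted p under 0.05. Of all genes tested, 65.9% passed, 33.2% higher and 32.8% lower. The 12 fibroblast markers summed to 44213 to 44952 CPM in the Vector libraries and 21368 to 22522 CPM in the libraries labelled FTO, with 4 higher and 8 lower. Most of the Vector sum was Col1a1, which went from 25809 ± 337 to 8268 ± 377 CPM, and Col3a1, from 10699 ± 90.0 to 3338 ± 363 CPM. The 4 higher ones were Dcn, Lum, Pdgfra and Thy1, at 119-fold, 8.87-fold, 5.63-fold and 1.51-fold the Vector level. The 12 macrophage markers summed to 1746 to 1809 and 252 to 286 CPM, 11 being lower and 1 higher. The higher one was Adgre1, which went from 6.81 ± 1.52 to 31.7 ± 3.64 CPM. Most of the Vector sum was Lyz2, which went from 1117 ± 22.8 to 97.6 ± 5.80 CPM. The mural markers summed to 1234 to 1264 and 307 to 343 CPM, with 5 of 7 lower. The other 2 were higher, Kcnj8 going from 2.06 ± 0.369 to 60.8 ± 3.11 CPM and Abcc9 from 20.9 ± 0.642 to 114 ± 13.7 CPM. In the other direction, cardiomyocyte markers summed to 1528 to 1561 and 2324 to 2369 CPM, with 9 of 10 higher, and epicardial markers to 58.6 to 63.6 and 208 to 229 CPM, with 5 of 7 higher. Endothelial markers summed to 131 to 137 and 123 to 127 CPM, with 4 of 8 higher and 3 lower. Most of that sum was Flt1, which fell from 94.3 ± 2.12 to 63.5 ± 3.82 CPM, while Cdh5, Kdr, Tek and Egfl7 were 3.00-fold, 4.39-fold, 2.23-fold and 1.94-fold higher. These markers were named after their values were seen. Of the markers listed, Emcn (endothelial) and Muc16 (epicardial) had no count in any Vector library. The part of these cell types in the differences of the 10 feedback genes was not tested.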

How the data were processed

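RNA-seq was performed on 6 libraries of NRCFs, 3 Vector and 3 labelled FTO, grouped by the genotype labels. The authors deposited raw counts per gene symbol, 1 file per library. The submitters' processing notes name Trimmomatic and rn6. The aligner, counter, annotation and strand setting are not given in the sources used here, so overlapping and near-identical genes remain uncertain. Total counts were 13178952 to 17857999 and TMM factors 0.995 to 1.005. Errors cover counting and replicate spread only.

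Genes were kept with filterByExpr at a minimum count of 10, leaving 12941. Groups were compared in edgeR 4.0.16 (R 4.3.3, limma 3.58.1) by the two-sided quasi-likelihood test, with no covariate, and p-values were adjusted by Benjamini-Hochberg over all genes tested. Each SE was derived from the F statistic. The procedure was tested on simulated data in which a far smaller part of the genes changed than was called here. That simulation therefore does not test the scaling under changes this widespread. Counts of members past a threshold are set beside the share of all genes past it.

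The 10 genes and the lists were chosen with earlier results of these data known. Genes named were the 10 members, 23 list genes given by symbol, the largest rise and fall in each list among genes that passed with groups apart, the 3 genes most like Dusp1 and Dusp4, and Fto. Some of the genes given by symbol are not reported here. Within-family ratios were added after values were seen. Alternatives were DESeq2 1.42.0, limma-voom, DESeq2 size factors, library size alone, no filter, a mean of at least 10 counts, the replicate number as a block, and each library left out. Ier2, Mcl1, Map3k1 and Ttn are not analysed here. Promoter windows of 250 bases came from RefSeq (GRCr8).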

Additional observations from a re-analysis of the deposited data

How the results depend on the processing

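The counts of the 10 feedback genes, 9 past an adjusted p of 0.05 and 3 past the study's threshold, were the same under all 13 alternatives. Of 130 log2 fold changes of these genes under the alternatives, 128 kept their direction and their side of the threshold. The other 2 were of Dusp5, which passed under no alternative and ran from -0.0218 to 0.131 on leaving out 1 library, negative without Vector replicate 3 and without FTO replicate 2. Its share of DUSP reads differed by -0.0152 percentage points with TMM CPM plus 1, and by -0.0778 to 0.120 points on leaving out 1 library. The number of all genes called ran from 7795 (DESeq2) to 9009 (no filter).

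Of 416 values of 32 other genes that the naming rule takes, 402 kept both. Signs turned, with no call, on leaving out 1 library for Dusp7 (-0.0895 to 0.0366), Spred2 (-0.0793 to 0.102) and Map2k2 (-0.0598 to 0.0460). Fgf2 lost its call under 6 alternatives and Braf gained one under 4. The cause was not tested. At the depth of Dusp5, changes within its confidence interval remained compatible with the counts.

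Libraries with equal replicate numbers were no more alike than those with unequal ones. With 3 libraries per group, this cannot tell whether equal numbers shared a culture. Deviations from the group means correlated at 0.0041, -0.0647 and 0.0153 for equal numbers and at -0.0838 to 0.0766 for unequal ones. With the replicate block, 8399 genes were called, with 9 of the 10 feedback genes among them and 3 past the study's threshold. The block also gave Braf an adjusted p of 0.0290.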

Other observations

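The kinases p38 and JNK are also substrates of DUSP1 and DUSP8, and 14 genes of their cascades were tested. Relative to the Vector group, 4 of these rose and 6 fell, with a median log2 fold change of -0.10. This was 71.4% called, beside 65.9% of all genes tested. Map3k8, which encodes a kinase that activates MEK in inflammatory signalling, rose most, from 9.22, 12.8 and 12.4 CPM in the Vector libraries to 48.9, 52.5 and 53.6 CPM in the libraries labelled FTO. Its log2 fold change was 2.17 (SE 0.0980, edgeR's quasi-likelihood test, adjusted p 2.7e-11), and the groups did not overlap. Map3k8 was placed in this list and not in that of the ERK cascade, where its rise would have been the largest. Map2k6, which encodes an activator of p38, fell most, from 1.54, 1.54 and 1.87 CPM to 0.631, 0.906 and 0.838 CPM on 9 to 27 reads per library (log2 fold change -1.05, SE 0.295, edgeR's quasi-likelihood test, adjusted p 0.00563).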
